A study of Mus musculus with 13 samples.

Results

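The genes described here are 9 factors that keep retroelements silent or restrict them: Dnmt1, Dnmt3a, Dnmt3b, Uhrf1, Trim28, Setdb1, Mov10, Apobec3 and Mphosph8. They were chosen by name, as rows of the gene count table with these symbols, and all 9 of the 24421 symbols in the table were found. All 9 also passed the filter on low counts, both in the fit of 13 libraries (17135 genes tested) and in that of the 11 tumors (16870 genes tested).

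Total RNA was sequenced from 2 mammary glands free of cancer and from 11 individual tumors of that gland, all in female mice of the FVB/N-TgN background that carry MMTV-HER2/neu (line 202Mul/J). All groups, the glands included, carry the same transgene, a rat HER2/Neu cDNA that the long terminal repeat promoter of mouse mammary tumor virus drives in breast epithelium, and the labels list the genotype of every sample as wild type. The 2 glands and 3 primary tumors came from untreated mice on plain water. Another 3 primary tumors came from mice that drank 1 mg/mL stavudine (STV), a nucleoside inhibitor of reverse transcriptase. The study describes these primary tumors as having developed in mice already treated with STV. In the study as a whole, STV began at 2 months of age or once tumors had appeared, and the start is not given per tumor. Recurrent tumors were those that came back once the primary tumor had disappeared under 17-DMAG (DMAG). This HSP90 inhibitor was injected intraperitoneally at 20 mg/kg 3 times per week. Of the recurrent tumors, 3 came from treatment without STV and 2 from treatment with STV in the drinking water (DMAG+STV). For these 2 tumors it is not known whether STV began before or after the primary tumor appeared. The labels name individual tumors and give no identity of the mice, so p-values measure the spread between these libraries.

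Long interspersed elements and endogenous retroviruses are held down in several layers. DNA methylation is copied to the new strand after replication by Dnmt1, which Uhrf1 recruits by binding hemimethylated CpG sites, and it is laid down anew by Dnmt3a and Dnmt3b. Trim28 (KAP1), brought to elements by zinc finger proteins, recruits the histone H3 lysine 9 methyltransferase Setdb1, Mphosph8 (MPP8) is the chromodomain reader of that mark in the HUSH complex, and Mov10 and Apobec3 act later, as an RNA helicase that binds element RNA and as a cytidine deaminase that restricts retroviruses.

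Promoter sequence is shown for Uhrf1 and Dnmt3a, the genes with the smallest p-values between tumors and glands, and for Apobec3, the only one of the 9 with an interferon-type motif. RefSeq start sites (GRCm38.p6) gave 16 windows of 250 bases before a start, at least 1 for each gene. The 3 motifs were searched on both strands: the E2F letters TTTCCCGC or TTTGGCGC, an interferon response motif of GAAA and GAAA with 2 bases of any kind between them, and the CCAAT box CCAAT. No match of 1 motif overlapped a match of another. Capitals mark the matches, and sequences run 5′ to 3′ on the strand of the gene.
Uhrf1, chr17:56304063-56304312, plus strand: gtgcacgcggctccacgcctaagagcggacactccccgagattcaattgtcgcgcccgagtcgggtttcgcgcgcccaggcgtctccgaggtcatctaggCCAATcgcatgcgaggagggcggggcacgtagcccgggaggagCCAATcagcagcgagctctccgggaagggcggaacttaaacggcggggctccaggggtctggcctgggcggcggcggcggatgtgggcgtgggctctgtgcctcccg
Dnmt3a, chr12:3806730-3806979, plus strand: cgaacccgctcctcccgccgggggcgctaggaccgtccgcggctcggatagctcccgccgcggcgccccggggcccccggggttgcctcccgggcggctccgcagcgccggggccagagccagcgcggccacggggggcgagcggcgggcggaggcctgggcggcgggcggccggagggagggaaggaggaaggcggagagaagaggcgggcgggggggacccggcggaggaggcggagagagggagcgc
Apobec3, chr15:79892158-79892407, plus strand: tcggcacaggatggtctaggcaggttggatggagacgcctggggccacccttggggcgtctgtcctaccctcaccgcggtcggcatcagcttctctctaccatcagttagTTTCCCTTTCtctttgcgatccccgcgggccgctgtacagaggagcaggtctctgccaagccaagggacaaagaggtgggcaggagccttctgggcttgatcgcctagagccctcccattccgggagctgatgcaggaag

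Uhrf1 has 2 windows, and the one shown was chosen, after both were seen, because it holds more matches and touches no annotated exon. The other, before the annotated gene start, held 1 CCAAT box and 10 CpG sites. The Uhrf1 window shown held 2 CCAAT boxes, at 150 to 146 and 107 to 103 bases before the start, and 30 CpG sites. It lies in an intron of the longer annotated transcript. The Dnmt3a window shown, 1 of 3, held none of the 3 motifs and 38 CpG sites. The median was 6 sites over 32851 windows of all genes. The other Dnmt3a windows also held none of the motifs, with 40 and 15 CpG sites. The Apobec3 window shown, 1 of 2, held 1 interferon-type match, at 140 to 131 bases before the start, and 12 CpG sites. All 250 of its bases lie in annotated exons, counted over Apobec3 and the long noncoding gene D730005E14Rik. It begins inside the annotated Apobec3 gene, after the gene start at 79892058. The other Apobec3 window held 1 CCAAT box, no interferon-type match and 3 CpG sites. An interferon-type match was present in 2.98% of all windows, a CCAAT box in 33.8% and an E2F match in 1.30%. No window of the 9 genes held either E2F string searched, TTTCCCGC or TTTGGCGC. Other forms of the E2F site were not searched. The Uhrf1 window shown holds the related letters TTTCGCGC, which are not marked. The absence of matches therefore says only that the strings searched are not in these windows.

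Library totals ran from 39921388 to 56887708 counts, and the detection floor of 3 counts came to 0.0587 to 0.107 CPM. CPM, the counts per 1e+06 counts of a library, are scaled by the trimmed mean of M values (TMM). The library of gland 2 stood apart, with a TMM factor of 0.493 and 37.7% of its counts on 8 milk protein genes, against 3.16% in gland 1. Gland 1 in turn held lymphoid RNA: the mean log2 CPM of 8 B cell markers was 4.66 there, −1.23 in gland 2 and −2.60 to −1.41 in tumors. Of the tumors, recurrent DMAG replicate 1 stood apart, with a pan-leukocyte score (mean log2 CPM of 10 markers) of 4.14 against 2.35 to 3.48 in the other tumors, and a mesenchymal score of 8.29 against 3.41 to 6.97. Recurrent DMAG+STV replicate 2 also stood apart, with the highest skeletal muscle score of the tumors (7.13, 1625 summed CPM over 8 genes, against −3.47 to 6.31) and the lowest luminal epithelial level (1811 summed CPM over 10 genes against 2765 to 3433). In bulk tissue, fewer cells of a type and less RNA per cell cannot be told apart. Luminal epithelial markers were present in all libraries, with a score of 10 genes between 6.42 and 7.73. Among them Krt19 was scarce in tumors, with a median of 1.04 CPM and a lowest value of 0.253 CPM.

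**Figure D1:**
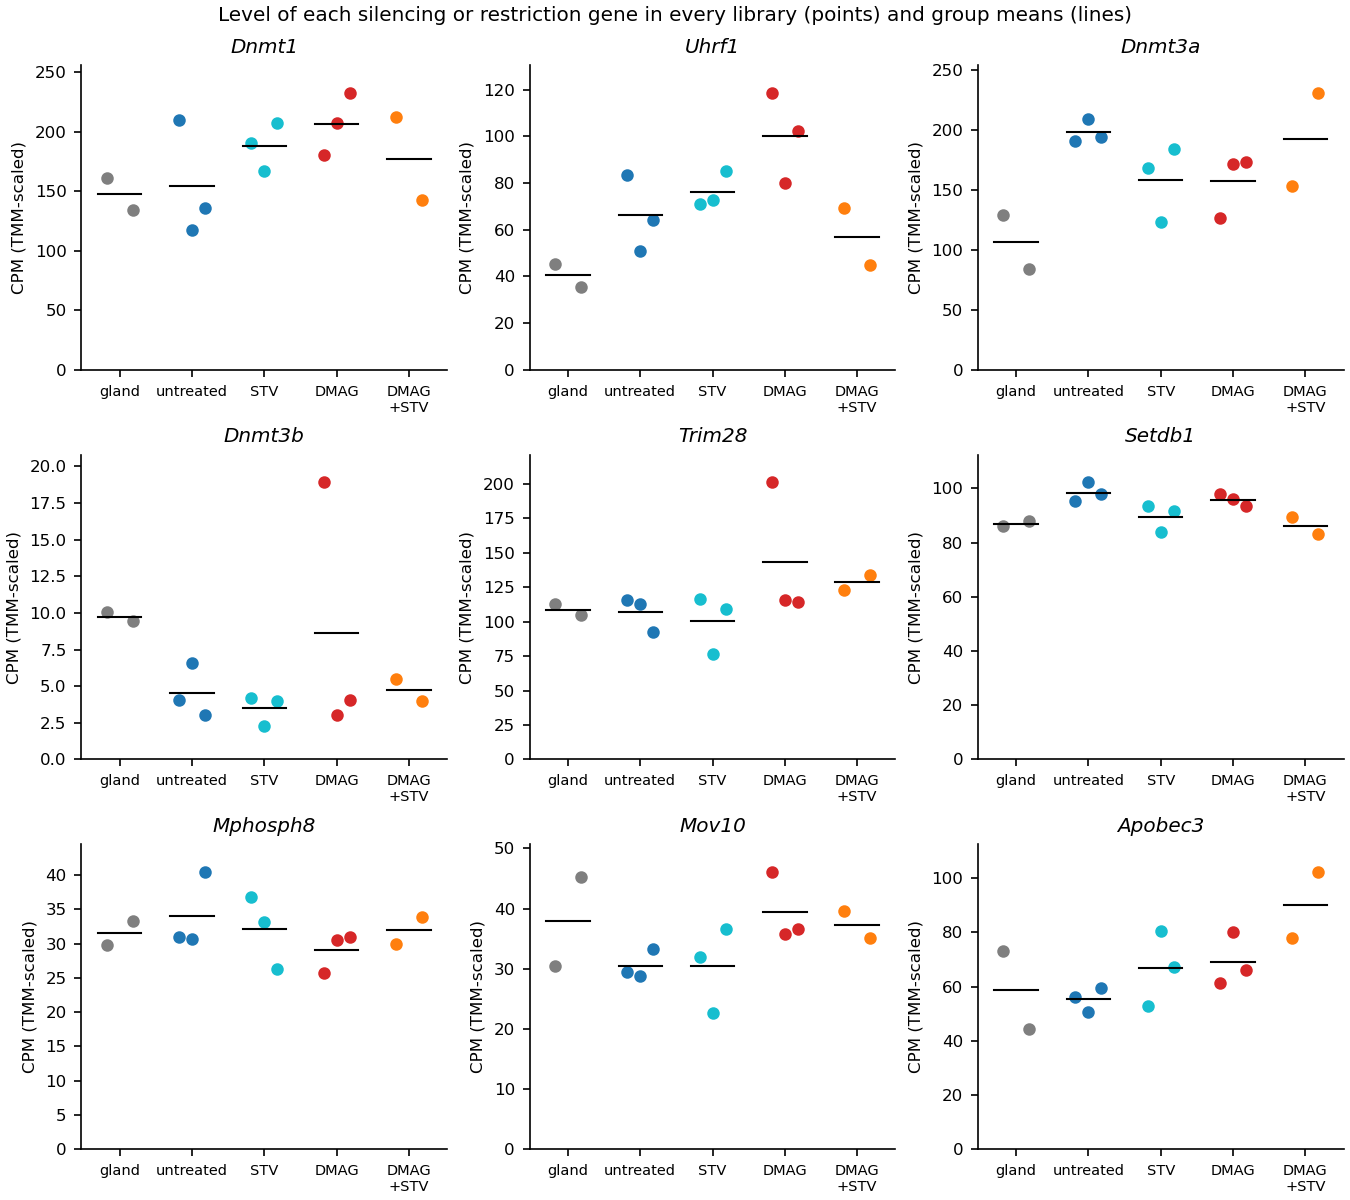
CPM (TMM-scaled, linear axis from 0) of each of the 9 genes in all 13 libraries, 1 point per library, grouped as 2 glands, 3 primary untreated, 3 primary STV, 3 recurrent DMAG and 2 recurrent DMAG+STV tumors, with a line at each group mean. The high points of recurrent DMAG replicate 1 stand out for Dnmt3b (18.9) and Trim28 (200.9), and both glands lie low for Uhrf1.

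Uhrf1 (chromosome 17, 56303337 to 56323486, plus strand) showed the clearest differences of the 9 genes. Its level was 45.2 and 35.6 CPM in the 2 glands, against 83.4, 50.9 and 64.2 CPM in primary untreated tumors. Primary STV tumors had 71.0, 72.8 and 85.2 CPM, recurrent DMAG tumors 118.5, 80.0 and 102.1 CPM, and recurrent DMAG+STV tumors 69.2 and 45.0 CPM. The single tumor inside the range of the glands was DMAG+STV replicate 2, and the 2 highest values were those of DMAG replicates 1 and 3. By group mean the order was glands (40.4), DMAG+STV (57.1), untreated (66.2 ± 16.4, SD, n = 3), STV (76.3 ± 7.73) and DMAG (100.2 ± 19.4). Each pair of neighbours in that order overlapped in range.

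Dnmt1 (chromosome 9, 20907206 to 20959888, minus strand), the maintenance methyltransferase, was at 161.6 and 134.4 CPM in the glands. Untreated tumors had 209.7, 117.8 and 136.3 CPM, STV tumors 190.5, 167.4 and 207.0 CPM, DMAG tumors 180.1, 207.8 and 232.6 CPM and DMAG+STV tumors 212.5 and 142.6 CPM. All groups overlapped the untreated tumors, which held the lowest tumor of all. The DMAG and STV tumors lay above both glands, while the untreated and DMAG+STV groups each had a member at or below gland 1.

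Dnmt3a (chromosome 12, 3801559 to 3914443, plus strand), a de novo methyltransferase, had 129.4 and 84.3 CPM in the glands and 190.5, 209.3 and 194.0 CPM in untreated tumors. It had 168.2, 123.1 and 183.7 CPM in STV tumors, 126.5, 171.6 and 173.4 CPM in DMAG tumors and 153.4 and 230.9 CPM in DMAG+STV tumors. Untreated tumors were the tightest group (197.9 ± 10.0, SD, n = 3) and lay above all STV and all DMAG tumors. Only STV replicate 2 and DMAG replicate 1 fell to the level of gland 1.

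Dnmt3b (chromosome 2, 153649411 to 153687730, plus strand), the other de novo enzyme, was scarce, with 106 to 816 counts per tumor. It was at 10.1 and 9.4 CPM in the glands. It was at 4.0, 6.6 and 3.0 CPM in untreated tumors, 4.2, 2.3 and 4.0 CPM in STV tumors and 5.5 and 4.0 CPM in DMAG+STV tumors. In DMAG tumors it read 18.9, 3.0 and 4.1 CPM, so that 1 tumor exceeded both glands and the other 10 lay below them.

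Trim28 (chromosome 7, 13024152 to 13031032, plus strand), the corepressor of the heterochromatin arm, was at 112.8 and 104.6 CPM in the glands, 115.3, 112.7 and 92.2 CPM in untreated tumors and 116.2, 76.3 and 109.3 CPM in STV tumors. DMAG tumors had 200.9, 115.7 and 113.9 CPM and DMAG+STV tumors 122.8 and 133.9 CPM. Apart from DMAG replicate 1 and STV replicate 2, all libraries lay between 92.2 and 133.9 CPM.

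Setdb1 (chromosome 3, 95323525 to 95357202, minus strand), the H3 lysine 9 methyltransferase, varied least of the 9 genes, with a coefficient of variation of 6.27% over the 11 tumors. It had 86.1 and 87.9 CPM in the glands, 95.2, 102.2 and 98.0 CPM in untreated tumors and 93.5, 84.0 and 91.5 CPM in STV tumors. DMAG tumors had 97.8, 96.2 and 93.6 CPM and DMAG+STV tumors 89.3 and 83.3 CPM. Both STV groups lay wholly below the matching group without STV, with means of 89.7 against 98.5 CPM in primary and 86.3 against 95.9 CPM in recurrent tumors.

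Mphosph8 (chromosome 14, 56668235 to 56697430, plus strand), the HUSH reader, had 29.7 and 33.3 CPM in the glands, 30.9, 30.7 and 40.5 CPM in untreated tumors and 36.7, 33.2 and 26.3 CPM in STV tumors. It had 25.7, 30.5 and 30.9 CPM in DMAG tumors and 30.0 and 33.9 CPM in DMAG+STV tumors. The ranges of all groups overlapped that of the glands, and the highest tumor had 1.57 times the CPM of the lowest.

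Mov10 (chromosome 3, 104794828 to 104818619, minus strand), the RNA helicase, had 30.4 and 45.3 CPM in the glands, 29.4, 28.8 and 33.2 CPM in untreated tumors and 32.0, 22.7 and 36.7 CPM in STV tumors. Recurrent tumors had 46.1, 35.7 and 36.5 CPM after DMAG and 39.5 and 35.1 CPM after DMAG+STV. All recurrent tumors exceeded all untreated tumors, and STV replicate 3 lay among the recurrent tumors.

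Apobec3 (chromosome 15, 79892058 to 79918218, plus strand), the cytidine deaminase, had 73.3 and 44.5 CPM in the glands, 56.1, 50.5 and 59.6 CPM in untreated tumors and 52.9, 80.5 and 67.3 CPM in STV tumors. It had 61.4, 80.3 and 66.1 CPM in DMAG tumors and 77.8 and 102.3 CPM in DMAG+STV tumors. Group means were ordered untreated (55.4 ± 4.59, SD, n = 3), glands (58.9), STV (66.9 ± 13.8), DMAG (69.3 ± 9.81) and DMAG+STV (90.1), with overlap between each pair of neighbours. D730005E14Rik overlaps Apobec3 and Mir7081 overlaps Dnmt1 on the same strand. Cbx7 overlaps Apobec3, Cers2 overlaps Setdb1, Dnmt3aos overlaps Dnmt3a and Gm16973 overlaps Mphosph8 on opposite strands, and the strand setting of the counting was not given in the sources used here, so reads in these stretches cannot be assigned with certainty.

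The comparison of all tumor groups with the glands asks how the silencing genes differ between this cancer and its tissue of origin. Uhrf1 was the only one of the 9 called, with a log2 fold change of 0.86 (SE 0.23) and an adjusted p of 0.0412 (edgeR quasi-likelihood test, Benjamini-Hochberg over all genes tested), or 1.81-fold higher in tumors. Its groups overlapped through DMAG+STV replicate 2. Dnmt3a had a log2 fold change of 0.72 (SE 0.22) with an unadjusted p of 0.00926 and an adjusted p of 0.0677 by the same edgeR test, just short of the threshold of 0.05. The other 7 genes had log2 fold changes between −0.95 (Dnmt3b) and 0.29 (Dnmt1), none with an unadjusted p under 0.05. Of all genes tested, 10.4% were called, 29.6% had an unadjusted p under 0.05 and 11.5% had groups that did not overlap. Of the 9 genes, 1 was called, 2 had an unadjusted p under 0.05 and 0 had groups that did not overlap, so the shares are near or below those of all genes. The median log2 fold change was 0.13 over the 9 genes and −0.02 over all genes.

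The call of Uhrf1 was close to the threshold and the direction held in all 20 other fits of this comparison. It was lost with library totals as scaling (1.18, adjusted p = 0.132, edgeR) and with limma voom (0.83, adjusted p = 0.0517). It was also lost without primary untreated replicate 3, gland 2, DMAG replicate 3, STV replicate 1, 2 or 3 or DMAG+STV replicate 1, each left out alone, with an adjusted p of up to 0.273 (edgeR, without gland 2). Dnmt3a was called by DESeq2 (0.69, adjusted p = 0.0219), and by edgeR without gland 1 (log2 fold change 1.09, adjusted p = 0.0234) and without DMAG replicate 1 (0.75, adjusted p = 0.0415). By edgeR, Dnmt3b was called lower in tumors without DMAG replicate 1, at −1.27 (adjusted p = 0.0201). Proliferation genes and leukocyte genes also differed in this comparison. Of 20 proliferation genes, 20 had a positive log2 fold change, with a median of 0.67 and 1 called, and of 10 pan-leukocyte genes 7 were called lower in tumors. Of other cell type markers, 7 of 8 adipocyte genes (median log2 fold change −3.96), 5 of 8 basal myoepithelial genes (−3.73), 7 of 7 T cell genes (−3.47), 5 of 5 B cell genes (−5.21) and 6 of 8 milk protein genes (−7.29) were called lower in tumors. Among 10 luminal epithelial genes, 2 were called lower and 7 had positive log2 fold changes (median 0.56). The part of these cell types in the differences of Uhrf1 and Dnmt3a from the glands was not tested.

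Primary untreated tumors alone were compared with the glands to leave out drug and water. None of the 9 genes was called, against 2.11% of all genes. Dnmt3a had the smallest p, with a log2 fold change of 0.89 (SE 0.26) and an adjusted p of 0.0840 (edgeR), and Uhrf1 followed with 0.71 (SE 0.26) and an adjusted p of 0.138 (edgeR). These 2 genes had an unadjusted p under 0.05, as did 24.5% of all genes. Dnmt3a, Uhrf1 and Setdb1 lay higher and Dnmt3b lower in tumors without overlap, 4 of 9 genes against 39.2% of all genes. DESeq2 called Dnmt3a (0.86, adjusted p = 0.0186), and so did edgeR without gland 1 (1.27, adjusted p = 0.0223). The remaining genes had log2 fold changes from −1.10 (Dnmt3b) to 0.18 (Setdb1).

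**Figure D2:**
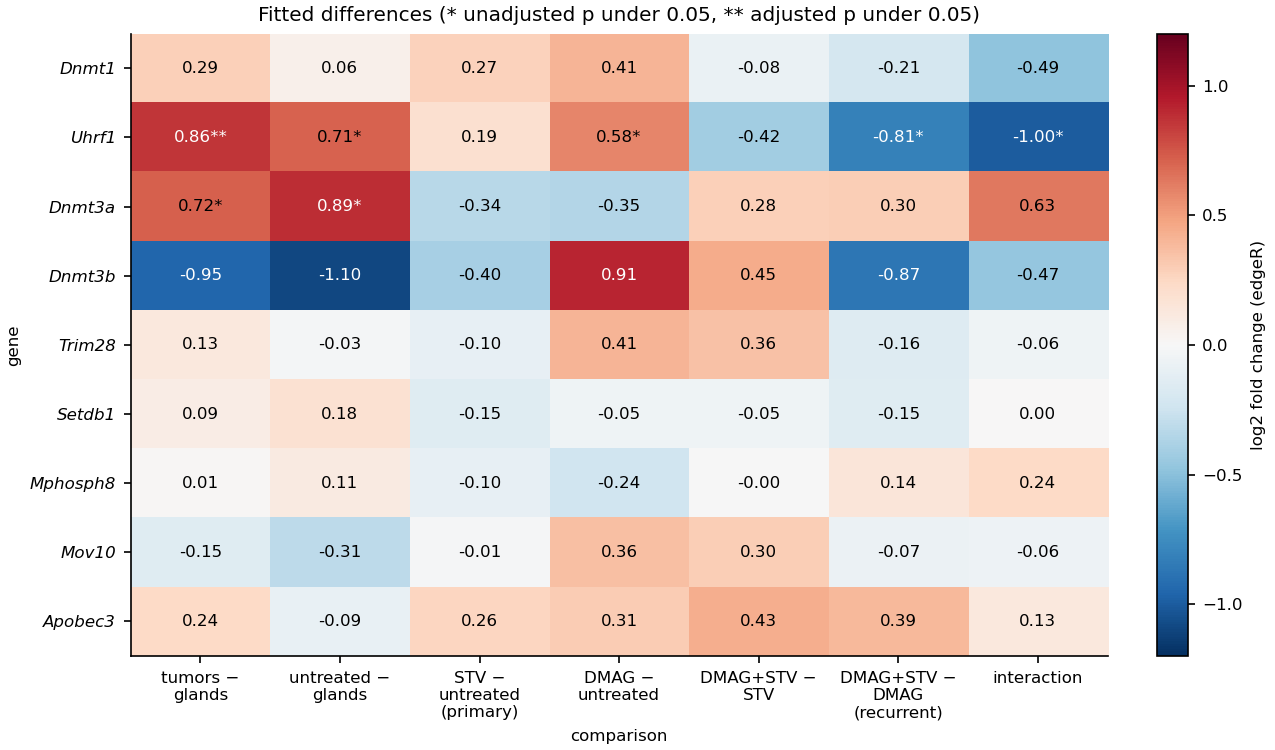
Fitted log2 fold change (edgeR, color and printed value) of the 9 genes (rows) in the 7 comparisons (columns), with 1 asterisk for an unadjusted p under 0.05 and 2 for an adjusted p under 0.05. The single double asterisk is Uhrf1 between tumors and glands (0.86), and the interaction gives Uhrf1 its most negative value (−1.0).

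STV in primary tumors asks whether the inhibitor of reverse transcriptase goes with a different level of the silencing genes before any DMAG. None of the 9 genes, and none of all genes (0.00%), was called by edgeR, while DESeq2 called 17 genes and none of the 9. An unadjusted p under 0.05 was reached by 0 of the 9 and by 3.76% of all genes. The smallest p was that of Setdb1, with a log2 fold change of −0.15 (SE 0.086, unadjusted p = 0.118, adjusted p = 1.00, edgeR). Setdb1 and Dnmt3a were lower in STV tumors without overlap, 2 of 9 genes against 10.8% of all genes. Fold changes of the 9 ran from −0.40 (Dnmt3b) to 0.27 (Dnmt1) on the log2 scale.

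Recurrence without STV was measured as DMAG against untreated tumors. In the study, DMAG injections went on until a regrown tumor reached the size at which the mouse was killed. Regrowth and ongoing DMAG exposure therefore cannot be told apart here, nor in recurrence under STV or the interaction. Neither edgeR nor DESeq2 called any of the 9, and edgeR called none of all genes (0.00%) while DESeq2 called 61. Uhrf1 was the only one with an unadjusted p under 0.05, which 9.69% of all genes reached, with a log2 fold change of 0.58 (SE 0.23, unadjusted p = 0.0282, adjusted p = 0.509, edgeR). Of the 9 genes, 6 had positive values, with a median of 0.36 against −0.01 over all genes. Mov10 (0.36) and Apobec3 (0.31) lay higher and Dnmt3a (−0.35) lower without overlap, 3 of 9 against 15.1% of all genes. The value of Dnmt3b, 0.91, turned to −0.36 without DMAG replicate 1, and that of Trim28 moved from 0.41 to 0.11. Dnmt3b was at −0.85 with the pan-leukocyte score as a term. In the same comparison all 10 pan-leukocyte genes had positive values, with a median of 0.79, 5 of them with an unadjusted p under 0.05. With the pan-leukocyte score as a term in the fit, Mov10 had a log2 fold change of 0.08, Trim28 of −0.06 and Apobec3 of 0.49. Every recurrent tumor scored higher (lowest 2.82, DMAG replicate 3) than every primary tumor (highest 2.74, STV replicate 3). Fits with this score as a term therefore cannot tell the score from recurrence, for these genes or for Dnmt3b.

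Recurrence under STV was measured as DMAG+STV against STV tumors. edgeR called none of the 9 and none of all genes (0.00%), and DESeq2 called 331 genes and none of the 9. No gene of the 9 had an unadjusted p under 0.05, against 10.1% of all genes. The smallest p was that of Apobec3, with a log2 fold change of 0.43 (SE 0.19, unadjusted p = 0.0511, adjusted p = 0.498, edgeR), 0.22 without DMAG+STV replicate 2 and 0.61 without DMAG+STV replicate 1. Trim28 lay higher (0.36) and Uhrf1 lower (−0.42) without overlap, 2 of 9 against 35.3% of all genes.

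STV in recurrent tumors compares DMAG+STV with DMAG tumors. By edgeR none of the 9 and none of all genes (0.00%) was called, and DESeq2 called 266 genes and none of the 9. Uhrf1 had a log2 fold change of −0.81 (SE 0.26, unadjusted p = 0.0115, adjusted p = 0.473, edgeR), the only one of the 9 with an unadjusted p under 0.05, which 7.84% of all genes reached. Uhrf1 and Setdb1 (−0.15) were lower in DMAG+STV tumors without overlap, 2 of 9 against 21.5% of all genes. Without DMAG+STV replicate 2 the Uhrf1 value was −0.54, and without replicate 1 it was −1.16. Comparisons among the 4 tumor groups share libraries pairwise, so their values are not independent of each other.

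The interaction asks whether the difference between recurrent and primary tumors was the same with and without STV. Uhrf1 was 0.58 higher in recurrent tumors without STV and −0.42 under STV on the log2 scale, a difference of −1.0 (SE 0.34, unadjusted p = 0.0159, adjusted p = 0.538, edgeR). It did not pass the adjustment, edgeR called none of the 9 and none of all genes (0.00%), and DESeq2 called 189 genes and none of the 9. An unadjusted p under 0.05 was reached by 1 of the 9 and by 7.84% of all genes. Dnmt3a had the next smallest p, with 0.63 (SE 0.30, unadjusted p = 0.0610, adjusted p = 0.649, edgeR), and it was −0.35 without STV and 0.28 under STV (−0.05 under STV without DMAG+STV replicate 2). With the proliferation score described below as a term in the fit, the Dnmt3a interaction was −0.32 and its value under STV −0.40.

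The Uhrf1 values moved with proliferation genes. The proliferation score, the mean log2 CPM of 20 cell cycle genes, was 5.40 to 5.59 in DMAG tumors, 4.82 to 5.26 in untreated and 4.94 to 5.36 in STV tumors, and 4.62 and 3.64 in DMAG+STV replicates 1 and 2. Of these 20 genes, 16 had an unadjusted p under 0.05 and lower levels in DMAG+STV than in DMAG tumors, and 0 were called after adjustment (edgeR). Both DMAG+STV tumors scored below all other tumors, so fits with the score as a term cannot tell the score from that group. With the score as a term in the fit, the Uhrf1 difference between DMAG+STV and DMAG tumors was 0.25 and the interaction 0.13, both of the opposite sign to the values without it. The pan-leukocyte score as a term left them at −0.79 and −0.97. With the proliferation score as a term, Dnmt3a between DMAG+STV and DMAG tumors was likewise of the opposite sign, at −0.59 against 0.30. All 8 skeletal muscle genes had positive values in the same comparison and in the interaction, with medians of 2.53 and 4.83 and none called, and their part in the Uhrf1 values was not tested.

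**Figure D3:**
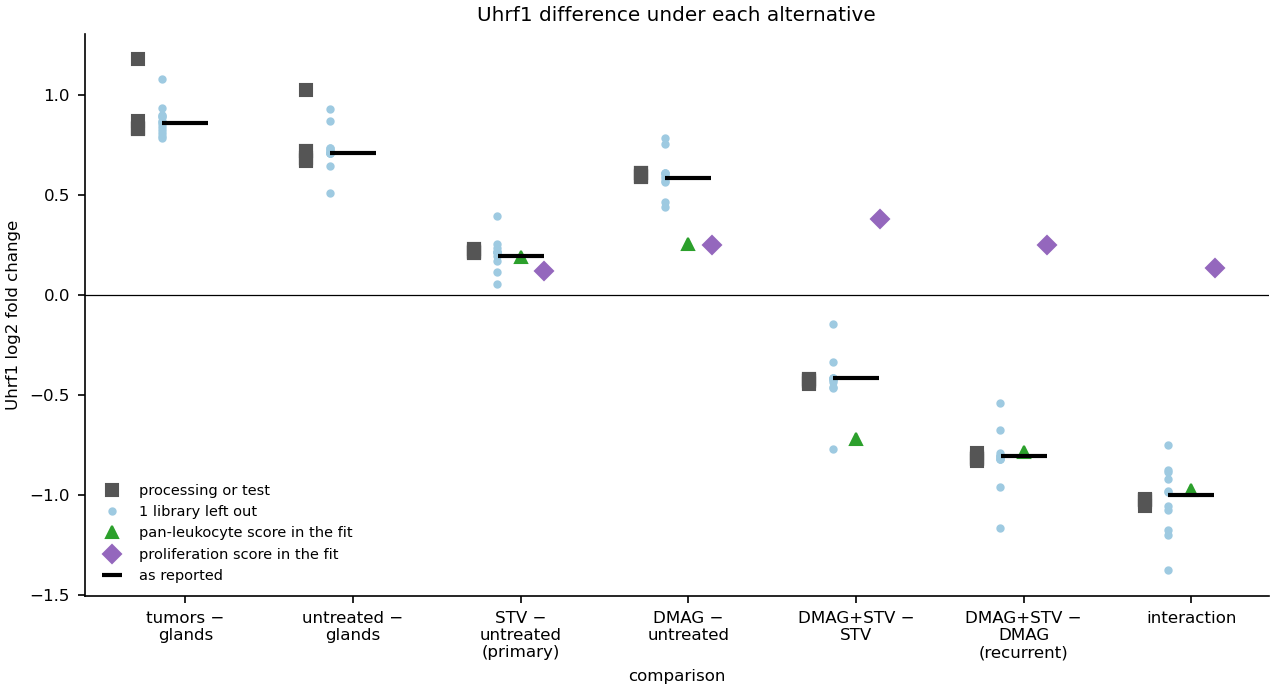
Log2 fold change of Uhrf1 (vertical axis) in the 7 comparisons (horizontal axis) as reported (black bars), under other processing or tests (squares), with 1 library left out (dots), and with the pan-leukocyte (triangles) or proliferation score (diamonds) in the fit. The diamonds lie above 0 in the last 3 comparisons, where the reported values are −0.42, −0.81 and −1.0, and in the last 2 of them no left-out library moves the value as far as the proliferation score does. Both DMAG+STV tumors scored below all other tumors, so the diamonds cannot tell the score from that group. All recurrent tumors had a higher pan-leukocyte score than all primary tumors. In the comparisons of recurrent with primary tumors the triangles therefore cannot tell that score from recurrence.

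Levels of the 9 genes were compared from tumor to tumor to see which varied together, over 36 pairs on log2 CPM values of the 11 tumors. Of these, 2 pairs passed a permutation test after Benjamini-Hochberg adjustment. The permutations, here and for the scores below, ignored the 4 groups, so differences between groups enter the p-values. Dnmt3b and Trim28 had Pearson's r of 0.88 and Spearman's rho of 0.76 (permutation p = 0.0014, adjusted p = 0.0259 for r and 0.147 for rho). That relation rests on DMAG replicate 1 and STV replicate 2, since r was 0.40 (permutation p = 0.278) without them. Setdb1 and Apobec3 had r of −0.83 and rho of −0.76 (permutation p = 0.0014, adjusted p = 0.0259 for r and 0.147 for rho), and r was −0.65 (permutation p = 0.0569) without STV replicate 2 and DMAG+STV replicate 2. Setdb1 ranged only from 83.3 to 102.2 CPM over the tumors in which Apobec3 ranged from 50.5 to 102.3 CPM.

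Dnmt1 and Uhrf1, the partners of maintenance methylation, had r of 0.70 and rho of 0.61 (permutation p = 0.0154, adjusted p = 0.138), and r was 0.62 without the 2 farthest tumors, untreated replicates 2 and 3. Trim28 and Mov10 had r of 0.81 (permutation p = 0.0079, adjusted p = 0.0946), falling to 0.17 without DMAG replicate 1 and STV replicate 2. The remaining pairs had adjusted p-values of 0.220 or more. No batch is given in the labels, and within the 6 primary tumors r was 0.95 for Dnmt1 and Uhrf1, 0.84 for Dnmt3b and Trim28 and −0.88 for Setdb1 and Apobec3.

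Against 3 marker scores, 27 relations were computed, of which 3 passed by Pearson's r and 2 of these also by rank. Uhrf1 was higher in tumors with a higher proliferation score, with r of 0.84 and rho of 0.87 (permutation p = 0.00031, adjusted p = 0.00837), and r was 0.89 without the 2 DMAG+STV tumors, the farthest on the score. Mov10 was higher with a higher pan-leukocyte score, with r of 0.84 and rho of 0.90 (permutation p = 0.0012, adjusted p = 0.0150), and r was 0.84 without DMAG replicate 1 and DMAG+STV replicate 1. Trim28 was higher with a higher value of the same score, with r of 0.84 and rho of 0.64 (permutation p = 0.0017, adjusted p = 0.0150), but the adjusted p of rho was 0.235 and r was 0.57 without DMAG replicate 1 alone. Within the 6 primary tumors, r of Uhrf1 with the proliferation score was 0.78. With the pan-leukocyte score it was 0.87 for Mov10 and 0.47 for Trim28 in the same tumors. Dnmt1 with the proliferation score had r of 0.45 over the 11 tumors and Apobec3 with the interferon score r of 0.03, neither passing. Dnmt1 with the interferon score had r of 0.75 (permutation p = 0.0087, adjusted p = 0.0586), falling to 0.36 without untreated replicate 2 and DMAG+STV replicate 2.

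**Figure D4:**
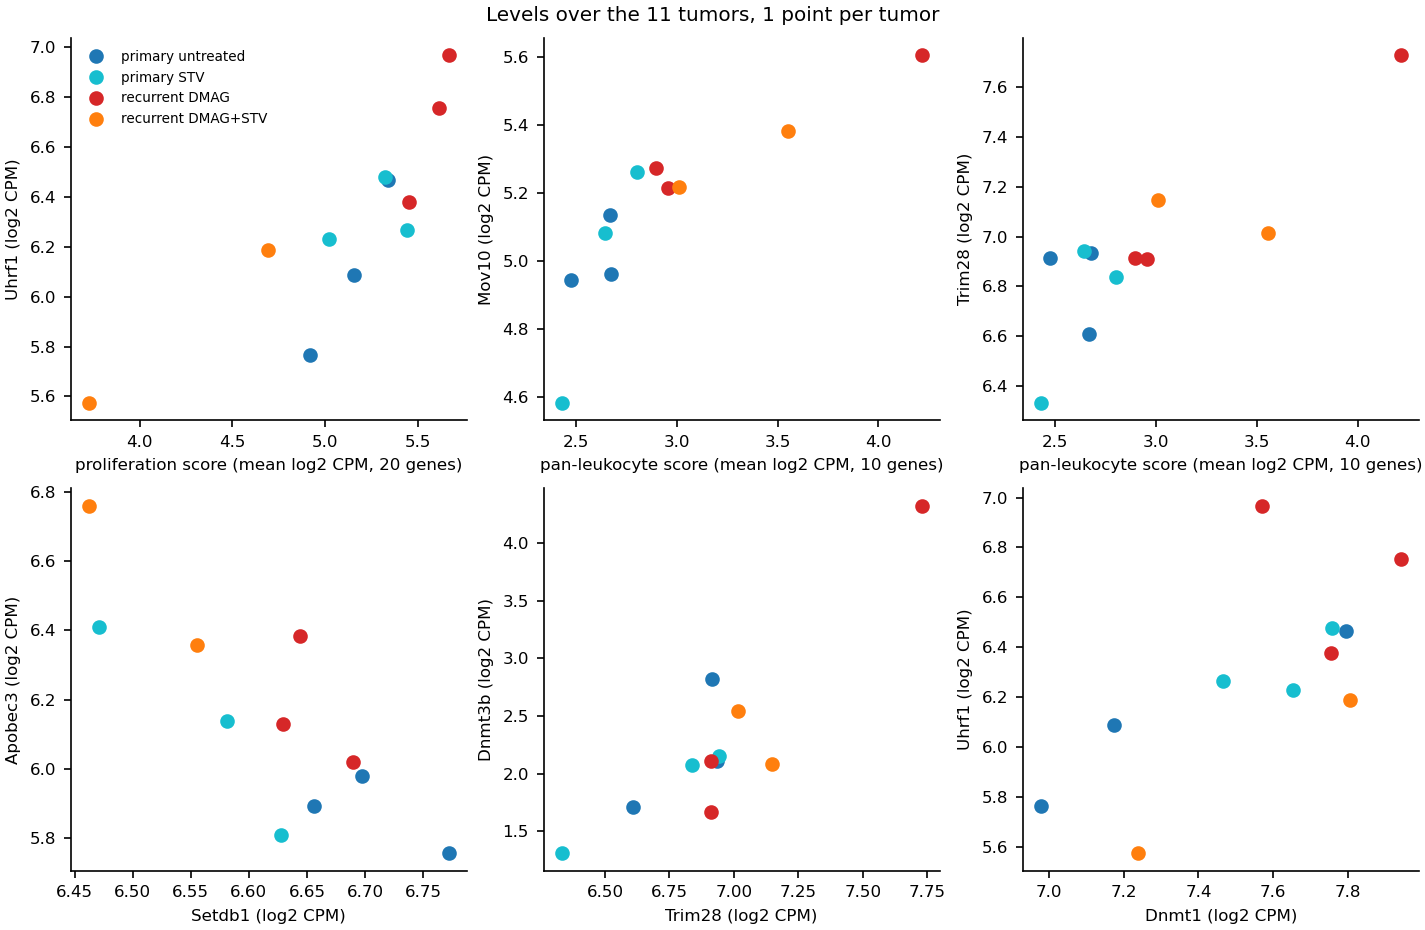
Log2 CPM of Uhrf1, Mov10, Trim28, Apobec3 and Dnmt3b (vertical axes) against marker scores or another gene of the 9 (horizontal axes) in the 11 tumors, 1 point per tumor, colored by group. Uhrf1 rises with the proliferation score (r of 0.84) across all 4 groups, while the relation of Dnmt3b to Trim28 (r of 0.88) is led by 1 DMAG tumor at the upper right.

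The genes whose pattern over the 11 tumors was most like that of each of the 9 were found by Pearson's r of log2 CPM among 12758 genes, as a description with no test. For Uhrf1 they were E2f8, an E2F family repressor of the cell cycle, with r of 0.98, D17H6S56E-5 (0.98) and Mlkl (0.97). For Dnmt1 they were Cntln (0.95), Nup210 (0.94) and Tspan17 (0.93), and for Dnmt3a Aldh3a2 (0.95), Dhx30 (0.91) and Kars (0.91). Dnmt3b was nearest to Smox (0.97), Cpne1 (0.96) and Zbtb34 (0.96), and Trim28 to Wbp11 (0.98), Bmp1 (0.97) and Igfbp7 (0.97), patterns in which DMAG replicate 1 weighs heavily. Setdb1 was nearest to Uaca (0.96), Caskin2 (0.94) and Eif2ak3 (0.92), and Mphosph8 to Wbp4 (0.90), Tmem170b (0.90) and Esco1 (0.90). Mov10 was nearest to Zdhhc12 (0.92), Atxn7l2 (0.92) and Tap2 (0.91), a peptide transporter of antigen presentation. Apobec3 was nearest to Irak3 (0.93), Dnm3 (0.93) and D730005E14Rik (0.89), and the last shares an exonic stretch with Apobec3 on the same strand.

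Other genes of the same pathways were examined from 4 lists. Of the DNA methylation list, with partners, erasers and readers, 13 of 15 genes were tested, of the heterochromatin list 22 of 22, of the restriction list 15 of 17 and of the piRNA list 6 of 10. Between tumors and glands, 1 gene was called lower in the DNA methylation list and 1 higher in the heterochromatin list, and 0 in the restriction and piRNA lists. These are 1 of 13, 1 of 22, 0 of 15 and 0 of 6 genes tested, beside 10.4% of all genes. The gene called lower was Usp7, the deubiquitinase that stabilizes Dnmt1 and Uhrf1, at 185.2 and 266.9 CPM in the glands and 142.5 to 173.3 CPM in tumors (log2 fold change −0.50, adjusted p = 0.0371, edgeR), and its value was −0.12 (adjusted p = 0.703) without gland 2. The gene called higher was Cbx5, which encodes the heterochromatin protein HP1 alpha, at 187.7 and 131.6 CPM in the glands and 201.6 to 307.2 CPM in tumors (0.67, adjusted p = 0.0420, edgeR), with 0.53 (adjusted p = 0.284) without gland 2. Both had groups that did not overlap, as did 11.5% of all genes. In the 4 lists, in the order above, 1, 4, 1 and 1 genes had groups without overlap. With 1 library left out, the call of Usp7 was kept only without gland 1 or DMAG replicate 1, and that of Cbx5 only without gland 1, DMAG replicate 1 or DMAG+STV replicate 1. With library totals as scaling, Usp7 had −0.01.

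In the other 6 comparisons no gene of the 4 lists was called by edgeR. The genes with the smallest p are given for 5 of them. Cdca7, a partner of the remodeler Hells, had a log2 fold change of −1.16 in untreated tumors against glands (adjusted p = 0.0666, edgeR). Morc2a, an ATPase of the HUSH pathway, had a log2 fold change of 0.69 in DMAG+STV against STV tumors (adjusted p = 0.400, edgeR), and Cbx3 one of −0.41 in DMAG+STV against DMAG tumors (adjusted p = 0.518, edgeR). Hells, a chromatin remodeler needed for DNA methylation, had an interaction value of −0.87 (adjusted p = 0.576, edgeR). Tdrd9, of the piRNA pathway, had −1.74 in STV against untreated primary tumors (adjusted p = 1.00, edgeR) at group means of only 0.161 and 0.538 CPM. An unadjusted p under 0.05 was reached, higher and lower, by 0 and 3 genes of the DNA methylation list, 3 and 1 of the heterochromatin list, 0 and 4 of the restriction list and 0 and 2 of the piRNA list between tumors and glands. These are 3 of 13, 4 of 22, 4 of 15 and 2 of 6 genes tested, beside 29.6% of all genes.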

How the data were processed

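The study sequenced ribosome-depleted, strand-marked total RNA. The deposited values are raw read counts per gene, 1 column per library, with no normalization by the authors, who aligned to GRCm38 with STAR and counted with featureCounts (Subread 1.6.2 per the submitters' processing notes). The strand setting and the treatment of reads mapping to several places are not given in the sources used here. Libraries were grouped by the labels. Genes passing filterByExpr were tested in R 4.3.3 with edgeR 4.0.16 (TMM, robust quasi-likelihood test, two-sided, Benjamini-Hochberg adjustment within a comparison, called under 0.05), on 13 libraries for comparisons with glands and on 11 tumors for the rest. The biological coefficient of variation was 0.431 and 0.402. Log2 CPM and scores used a prior count of 2. Correlations were tested with 100000 permutations. Alternatives were DESeq2 1.42.0, limma 3.58.1 voom, other scalings and filters, left-out libraries, a replicate block and marker scores as terms. The scripts were tested on simulated data with a smaller spread than these libraries had, which does not give their error rates here.

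All members received a fold change in every comparison. Printed with a test were those with an unadjusted p under 0.05 or, failing that, the smallest p, and a few others chosen after their values were seen. Of other pathway genes, those called, or the 1 with the smallest p, were named (1 result is not reported here), and the 3 genes most alike each member were taken among those whose mean log2 CPM reached 1. Of 195 list symbols, 193 were found, with Tasor matched as Fam208a. The members and lists were chosen with earlier results of these data known. Sequences are from RefSeq promoter windows (GRCm38.p6), and exons from GENCODE M21. Intervals and floors of counts cover counting error only.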

Additional observations from a re-analysis of the deposited data

Results flagged for a closer look

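The interaction of recurrence and STV for Uhrf1 was −1.0 on the log2 scale (edgeR, unadjusted p = 0.0159, adjusted p = 0.538), because the recurrence difference was positive without STV and negative under STV. It met an unadjusted threshold only, as did 7.84% of all genes, and it was −0.75 without DMAG+STV replicate 2 and −1.38 without DMAG+STV replicate 1. With the proliferation score as a term in the fit it turned to 0.13, but that fit cannot tell the score from the DMAG+STV group. Groups of 2 or 3 libraries were too small for a test of single outlying samples.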

How the results depend on the processing

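The limits are the 2 glands, which differ from each other in milk and lymphoid RNA, the 2 DMAG+STV tumors, and calls of this design that sit near the threshold. In the comparisons with glands, scaling by library totals moved the median log2 fold change of all genes from −0.02 to 0.37 and 0.36. Numbers of genes called between tumors and glands were 489 with library totals, 3242 with DESeq2 and 371 with the replicate block, against 1785, and genes of the 9 called were 0 with library totals, 2 with DESeq2 and 0 with voom, against 1. Between untreated tumors and glands, 19, 2352 and 4 genes were called in the same 3 settings and 0 in a fit of those groups alone, against 361, and DESeq2 called 1 of the 9. Among tumors, where edgeR called 0, DESeq2 called 17, 61, 331, 266 and 189 genes in the order of the comparisons above, a fit of the groups alone called 2 for recurrence under STV, and the pan-leukocyte score as a term gave 1 for STV in recurrent tumors. With the proliferation score as a term, Uhrf1 reversed to 0.25 for STV in recurrent tumors and to 0.13 for the interaction. Those fits cannot tell the score from the DMAG+STV group. Without the 2 farthest tumors, 0 of the pairs of the 9 genes passed.

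With 1 library left out, genes called ran from 535 (without gland 2) to 4255 (without gland 1) for tumors against glands and from 0 (without untreated replicate 2 or 3) to 3381 (without gland 1) for untreated tumors against glands, and genes of the 9 called from 0 to 3 and from 0 to 1. Among tumors the ranges were 0 to 1 for recurrence without STV, 0 to 100 under STV, 0 to 141 for STV in recurrent tumors and 0 to 77 for the interaction, the largest each time without DMAG+STV replicate 1 except for recurrence without STV. Of the 36 pairs 0 to 2 passed, and of the 27 relations with scores 1 to 4. The values of Uhrf1, Dnmt3a, Setdb1 and Apobec3 printed with a test kept their sign in these fits, and Dnmt3b in recurrence without STV did not, with −0.36 without DMAG replicate 1.

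The replicate numbers in the labels are shared between groups but nothing says that they pair the samples. Deviations of same-numbered libraries had a median correlation of −0.05 over 15 pairs, with 2 over 0.1. As a block, the numbers left Uhrf1 called between tumors and glands (0.83, adjusted p = 0.0425, edgeR) with 371 genes called in place of 1785 and 4 in place of 361.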
